A study of Mus musculus with 71 samples.

Results

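The collagen and laminin genes were described in wild-type (WT) mouse embryonic stem cells (mESCs) and in mESCs partly depleted of linker histone H1. Members were the genes whose symbol is Col, a number, a and a number, or Lama, Lamb or Lamc and a number, and 55 of the 24138 gene symbols in the RNA-seq tables met this rule, 44 collagens and 11 laminins. WT cells were R1 mESCs. H1-TKO cells were a single-cell clone of these mESCs in which CRISPR/Cas9 had knocked out H1c, H1d and H1e, which code for linker histones, so a difference between genotypes cannot be told apart from a difference between this clone and the parental line. RNA-seq covered 2 libraries per genotype, and H3K27me3 ChIP-seq was examined through 1 peak list per genotype. No treatment was given in these experiments.

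Collagens are triple-helical proteins of the extracellular matrix. Fibrillar collagens build fibres in connective tissue, whereas type IV collagen forms the network of basement membranes together with laminins, which are trimers of an α, a β and a γ chain. Mouse ES cells and the early embryo make basement membrane with type IV collagen and laminin α1, α5, β1 and γ1, and many other collagen genes are expressed by later tissues. H3K27me3 is the mark that Polycomb repressive complex PRC2 places on repressed genes, often at CpG-rich promoters.

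The genotype of the RNA-seq libraries needs care. GEO's sample labels are opposite to the headings inside the tables (KO and R1). The headings were used, since every library equalled the column of the same heading in the study's per-library source data in all 1999 rows read (100%, within a relative or absolute tolerance of 0.001). With the sample labels instead, every direction below would be reversed. The knocked-out genes did not settle the genotypes. H1f4 (H1e) had 7 and 18 reads in WT against 0 and 2 in H1-TKO, and H1f3 (H1d) had 5 and 38 against 1 and 0, but H1f2 (H1c) had 15 and 52 against 17 and 7, and the untargeted H1f5 had 8 and 41 against 0 and 2. A count of 0 allows up to 3 reads, counting error only. The growth protocol attached to the RNA-seq samples describes HeLa cells, whereas their organism and cell type are mouse ES cells. Of 10 mESC markers 9 had reads, and Nanog, which has several accessions, was listed at 0. Of the 8 that were tested, 4 were higher in H1-TKO cells in limma (Sox2, Klf4, Fgf4 and Dppa5a), 1 was lower (Tdgf1) and 3 did not pass, among them Pou5f1 at 2642 and 5110 normalized counts in WT against 2586 and 2908 in H1-TKO. The libraries held between 6951619 and 10538507 reads. One accession took 11.8% of the reads in WT replicate 2 and between 1.98% and 2.08% in the other 3 libraries.

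A few stretches of DNA at the starts of these genes are shown first, because the promoters differed in CpG content and in the peaks listed over them. They were read from the NCBIM37 (mm9) genome, with each CpG dinucleotide (CG) in capitals. The first is the 22-base stretch on chromosome 8, chr8:11312805-11312826 on the plus strand, where the first exons of Col4a1 and Col4a2 overlap head to head, and a peak covered it in both genotypes. The second is the gap between the starts of Col4a4 and Col4a3, chr1:82583425-82583495 on the plus strand, into which peaks reached in the H1-TKO list alone. The last 3 are the 200 bases before the first annotated start of Col26a1 (chr5:137359080-137359279, minus strand), which carried peaks in both lists and rose in H1-TKO cells, of Col5a3 (chr9:20619512-20619711, minus strand), which carried none and rose, and of Col1a1 (chr11:94797338-94797537, plus strand), which carried none and fell.
Col4a1 and Col4a2 starts: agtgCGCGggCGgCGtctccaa
Col4a4 to Col4a3: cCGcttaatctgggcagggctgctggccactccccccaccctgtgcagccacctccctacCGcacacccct
Col26a1: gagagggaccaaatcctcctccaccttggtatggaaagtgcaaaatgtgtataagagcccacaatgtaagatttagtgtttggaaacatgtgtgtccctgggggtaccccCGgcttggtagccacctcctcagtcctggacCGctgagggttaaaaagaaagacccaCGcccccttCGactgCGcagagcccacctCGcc
Col5a3: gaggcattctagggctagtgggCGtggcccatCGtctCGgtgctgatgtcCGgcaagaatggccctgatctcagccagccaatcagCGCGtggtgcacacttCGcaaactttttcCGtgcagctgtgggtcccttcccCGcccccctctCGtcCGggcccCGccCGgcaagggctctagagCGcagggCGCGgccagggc
Col1a1: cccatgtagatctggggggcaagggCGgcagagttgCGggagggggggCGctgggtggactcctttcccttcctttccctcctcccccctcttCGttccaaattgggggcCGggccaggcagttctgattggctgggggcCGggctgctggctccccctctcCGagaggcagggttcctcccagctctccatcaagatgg
These upstream stretches held 6 CpG for Col26a1, 16 for Col5a3 and 7 for Col1a1, against a median of 7 over all protein-coding genes, of which 90.4% had at least 1 CpG in the 200 bases before the start. The Col4a1 and Col4a2 overlap held 4 CpG in 22 bases and the Col4a4 to Col4a3 gap 2 in 71 bases.

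Of the chains of the embryonic basement membrane, Lamc1, Lamb1 and Lama5 stood far above the other members (plot of levels per library). Levels are given here as normalized count per kb of the longest protein-coding transcript, where a normalized count is the read count of a gene divided by the size factor of its library. Lamc1, the γ chain of most laminins, was highest at 825 and 694 in WT libraries against 596 and 565 in H1-TKO libraries. Lamb1, the β1 chain, followed at 553 and 326 in WT and 364 and 386 in H1-TKO. Lama5, the α5 chain, was at 441 and 395 in WT and 281 and 295 in H1-TKO. Lama1, the α1 chain of the earliest embryonic laminin, was at 134 and 175 in WT and 91.8 and 82.4 in H1-TKO. Its H1-TKO level was near that of Lamb2, a chain not named above, at 90.7 and 92.3 in H1-TKO. For Lamc1, Lama5 and Lama1 both H1-TKO values lay below both WT values, and for Lamb1 the groups overlapped.

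**Figure D1:**
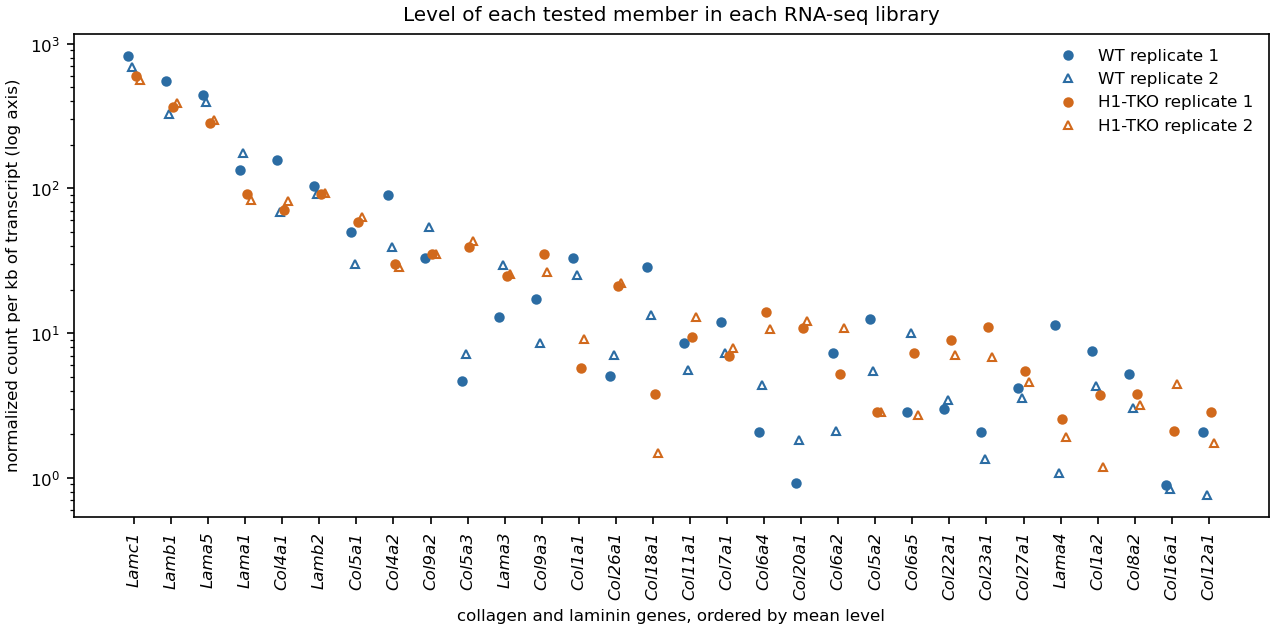
Normalized count per kb of transcript (log axis) of 30 of the 31 members tested, ordered by mean level, with 1 point per library (blue, WT; orange, H1-TKO; circle, replicate 1; triangle, replicate 2). Lamc1 is highest, between 565 and 825 per kb, and the WT replicates stand apart from each other for Lama4.

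Further members among the highest by mean level per kb were Col4a1 (95.1), Lamb2 (94.6), Col5a1 (50.6), Col4a2 (47.0) and Col9a2 (39.2). The spread between WT libraries was wide for some of these. Col4a1 was at 158 and 68.6 per kb in WT and 71.1 and 82.3 in H1-TKO, and so cannot be placed above or below Lamb2, which varied from 90.7 to 104 per kb over the 4 libraries. At the other end, 24 members were below a mean of 10 normalized counts in each of their accessions and were not tested, and 3 of them (Col25a1, Col4a5 and Col6a3) were listed at 0 in every library. All 3 have several RefSeq accessions, as do 10 members in all, and reads shared by accessions may not have been counted, so a listing at 0 does not show that the gene was silent.

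Of the 32 member accessions tested (31 genes), 5 were higher and 4 were lower in H1-TKO than in WT cells at a Benjamini-Hochberg adjusted p under 0.05 (limma on log2 of the normalized count + 1). Over all 11113 accessions tested 9.84% were higher and 10.7% were lower. The members' share is therefore near that of all genes. Their median log2 difference was -0.14, beside -0.03 for all accessions. The members that rose were collagens, and those that fell were 2 collagens and 2 laminin α chains. The filter used the mean over all libraries of both genotypes. Col20a1 and Col23a1, with WT means of 5.76 and 9.64 normalized counts, passed it only through their H1-TKO values. Nothing is therefore read from low WT counts among the members that rose. The methods describe the libraries of a genotype as biological replicates, so these p-values measure the spread between such replicates.

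**Figure D2:**
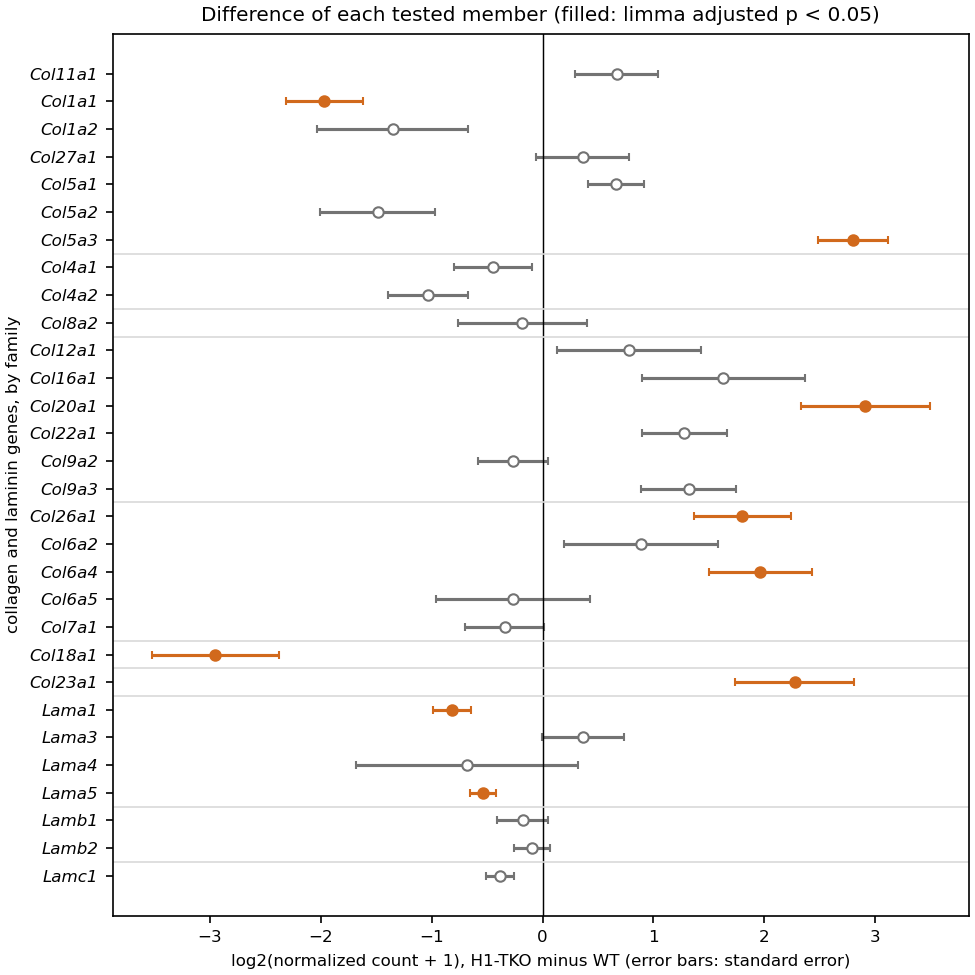
Difference in log2(normalized count + 1), H1-TKO minus WT, with its standard error, for 30 of the 31 members tested, grouped by family (one accession per gene). Filled orange points passed an adjusted p of 0.05 in limma, 5 to the right and 4 to the left of zero.

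Among the fibrillar collagens 7 of 11 genes were tested, and 1 rose and 1 fell. Col5a3 (NM_016919, chr9:20574494-20619511), the α3 chain of type V collagen, was at 28.7 and 43.6 normalized counts in WT against 240.2 and 264 in H1-TKO cells. Both H1-TKO values were far above both WT values, with a log2 difference of 2.80 ± 0.32 (SE, n = 2 libraries per genotype, limma adjusted p = 0.00354). Col1a1 (NM_007742, chr11:94797538-94814356), the main chain of type I collagen in bone and skin, was at 196 and 148 in WT and at 34.2 and 53.7 in H1-TKO. It fell by 1.97 on the log2 scale (SE 0.35, limma adjusted p = 0.0112). Its partner chain Col1a2 was at 40.3 and 22.9 in WT and 19.8 and 6.32 in H1-TKO, a log2 difference of -1.35 ± 0.68 that did not pass (limma adjusted p = 0.19). Col5a1, the α1 chain of type V collagen, had 418 and 253 normalized counts in WT against 496 and 535 in H1-TKO. Both H1-TKO values were higher, but the difference of 0.66 ± 0.25 did not pass (limma adjusted p = 0.102). Col27a1, a cartilage collagen, was at 31.8 and 27.3 in WT and 41.9 and 34.8 in H1-TKO (log2 difference 0.36 ± 0.42).

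Of the 6 type IV chains, Col4a1 and Col4a2, which assemble into the common form of the network, were tested, and neither passed. Col4a1 was at 1047 and 454 normalized counts in WT against 470 and 545 in H1-TKO, so the groups overlapped (log2 difference -0.44 ± 0.35). Without WT replicate 1 that difference was 0.16, and without WT replicate 2 it was -1.05. Col4a2 was at 580 and 255 in WT and 193 and 183 in H1-TKO. Its H1-TKO values lay below both WT values, with a log2 difference of -1.03 ± 0.36 (limma adjusted p = 0.0826), and DESeq2 on the recovered reads gave -1.14 with an adjusted p of 0.0108. That difference was -0.44 without WT replicate 1 (limma adjusted p = 0.0787) and -1.62 without WT replicate 2. The median difference of chromosome 8, which carries both, was -0.22 relative to all accessions. Col4a3 and Col4a4, the chains of the kidney glomerulus, had few reads. Col4a3 was at 2.33 and 5.45 in WT and 11.0 and 9.48 in H1-TKO, and Col4a4 at 3.88 and 0 in WT and 9.92 and 6.32 in H1-TKO. Col4a6 did not exceed 3.31 in any library. 1 read was worth between 0.776 and 1.10 normalized counts.

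Fibril-associated collagens bind to the surface of collagen fibrils, and 1 of the 6 tested passed. Col20a1 (NM_028518, chr2:180721240-180752245) was at 3.88 and 7.64 normalized counts in WT against 45.2 and 50.6 in H1-TKO. The values rest on 5 and 7 reads in WT and 41 and 48 in H1-TKO. It rose by 2.91 ± 0.58 on the log2 scale (limma adjusted p = 0.016), a scale that understates the change of genes with so few counts. Col9a3, a chain of type IX collagen of cartilage, was at 52.0 and 26.2 in WT and 108 and 81.1 in H1-TKO (log2 difference 1.32 ± 0.43, limma adjusted p = 0.0671). Its partner Col9a2 was at 96.2 and 157 in WT and 102.5 and 102.2 in H1-TKO, and the groups overlapped. Col16a1 (4.65 and 4.36 in WT, 11.0 and 23.2 in H1-TKO) and Col12a1 (24.1 and 8.73 in WT, 33.1 and 20.01 in H1-TKO) did not pass.

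Among the type VI, VII, XXVI and XXVIII chains 2 of the 5 tested rose. Col6a4 (NM_026763, chr9:105891785-105999114), a chain of the beaded type VI collagen, was at 15.5 and 32.7 normalized counts in WT against 104.7 and 79.0 in H1-TKO. Its log2 difference was 1.96 ± 0.46 (limma adjusted p = 0.0273). Col26a1 (NM_024474, chr5:137217629-137359079) was at 14.0 and 19.6 in WT and 58.4 and 62.1 in H1-TKO. Its log2 difference was 1.80 ± 0.44 (limma adjusted p = 0.029). Col23a1 (NM_153393, chr11:51103422-51397420), a transmembrane collagen and the one member of its family that was tested, was at 11.6 and 7.64 in WT and 62.8 and 39.0 in H1-TKO. The groups did not overlap, and it rose by 2.27 ± 0.53 (limma adjusted p = 0.0267). Without a filter on low counts Col6a4, Col26a1 and Col23a1 had adjusted p-values of 0.0592, 0.0601 and 0.0578.

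Col18a1, the basement membrane collagen whose end fragment is endostatin, fell in one of its accessions. NM_009929 (gene at chr10:76514923-76629293) was at 182 and 85.1 normalized counts in WT against 24.2 and 9.48 in H1-TKO. It fell by 2.95 on the log2 scale (SE 0.57, limma adjusted p = 0.0148). The second accession, NM_001109991, was at 7.76 and 15.3 in WT and 16.5 and 12.6 in H1-TKO, where the groups overlapped. Col15a1, its nearest relative, stayed below the filter at 4.65 and 2.18 in WT and 7.71 and 7.37 in H1-TKO. Col8a2, of the network-forming type VIII collagen of endothelial basement membranes, was at 22.5 and 13.1 in WT and 16.5 and 13.7 in H1-TKO (log2 difference -0.18 ± 0.58).

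Of the 8 laminins tested 2 passed, both α chains and both lower in H1-TKO cells. Lama1 (NM_008480, chr17:68046605-68171985) was at 1272 and 1665 normalized counts in WT against 874 and 785 in H1-TKO. It fell by 0.81 on the log2 scale (SE 0.17, limma adjusted p = 0.0186). Lama5 (NM_001081171, chr2:179911078-179960564) was at 5019 and 4503 in WT and 3197 and 3354 in H1-TKO, and fell by 0.54 (SE 0.12, limma adjusted p = 0.0216). Lama3, the α chain of epithelial laminin, was at 133 and 308 in WT and 256 and 265 in H1-TKO, and the groups overlapped. Of the β and γ chains none passed in limma. Lamb1 differed by -0.18 ± 0.23, by 0.20 without WT replicate 1 and by -0.56 without WT replicate 2. Lamb2 differed by -0.09 ± 0.16. Lamc1 was at 6286 and 5290 in WT and 4546 and 4307 in H1-TKO, a log2 difference of -0.38 ± 0.13 (limma adjusted p = 0.071). Chromosome 1, which carries Lamc1, had a median difference of 0.52 relative to all accessions, where the median is taken over the differences of its accessions. When the median log2 level of each chromosome was subtracted in each library, which took 0.41 off the differences on chromosome 1, that of Lamc1 was -0.79 (limma adjusted p = 0.00696). All 9 called members kept their calls with the chromosome medians removed.

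With either WT library left out, all 9 differences kept their direction, in fits whose spread comes from the 2 H1-TKO libraries alone. Without H1-TKO replicate 1, 7 of the 9 calls were lost, with adjusted p-values from 0.0577 (Col1a1) to 0.295 (Lama5), and Col5a3 and Col18a1 remained. Without H1-TKO replicate 2, 6 were lost, with adjusted p-values from 0.09 (Col6a4) to 0.226 (Lama5), and Col5a3, Col18a1 and Col1a1 remained. In these fits the spread comes from the 2 WT libraries, and the differences kept their direction. Without H1-TKO replicate 1 or 2 they were -3.58 and -2.32 for Col18a1, 1.94 and 2.61 for Col23a1 and -0.50 and -0.57 for Lama5. Without WT replicate 1 or 2 they were -2.40 and -3.49 for Col18a1 and 1.45 and 2.48 for Col6a4, and with its accessions summed Col18a1 was at -2.16.

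Other genes of the basement membrane and of collagen assembly were read from lists chosen with earlier results of these data known. Among 10 tested accessions of other basement membrane proteins 1 was higher and 3 were lower in H1-TKO cells, with a median log2 difference of -0.46. Hspg2, the core protein of perlecan, was at 9529 and 7044 normalized counts in WT against 3451 and 3645 in H1-TKO (log2 difference -1.21 ± 0.16, limma adjusted p = 0.00508). Pxdn, the peroxidase that crosslinks type IV collagen, was at 1005 and 383 in WT and 169 and 232 in H1-TKO (log2 difference -1.65 ± 0.42, limma adjusted p = 0.0341). Agrn (agrin) was at 4712 and 3856 in WT and 3103 and 3101 in H1-TKO. Its log2 difference of -0.46 ± 0.13 only just passed (limma adjusted p = 0.0499). Fbln1 (fibulin 1) was the one that rose, from 275 and 283 to 729 and 834. Among 16 tested accessions of collagen processing 4 were lower and none was higher in limma. They were P3h4 and Crtap, which act in the modification of collagen in the endoplasmic reticulum, Loxl1, a lysyl oxidase, and Mia3, which exports procollagen. Loxl1 was at 64.4 and 52.4 in WT and 8.81 and 7.37 in H1-TKO. Among 7 tested receptors 2 were lower, Itgb1, the integrin β1 subunit (5897 and 3704 in WT, 1983 and 2056 in H1-TKO), and Bcam, a receptor for laminin α5 (2224 and 1739 in WT, 1136 and 1018 in H1-TKO). In these 3 lists together 9 of 33 accessions were lower and 1 was higher, beside 10.7% lower and 9.84% higher over all accessions.

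Marker lists moved with some of these genes. The summed level of the 10 mESC markers was 29013 to 41497 in WT and 49769 to 50687 in H1-TKO. Of 14 fibroblast or feeder markers 5 were tested, of which 3 fell (Acta2, Tagln and Twist1) and 1 rose (Thy1). Acta2, smooth muscle actin, was at 217 and 180 normalized counts in WT against 2.204 and 0 in H1-TKO, where a count of 0 allows up to 3.16. Tagln was at 2019 and 436 in WT and 47.4 and 54.8 in H1-TKO. The summed level of the list was 2741 to 3222 in WT and 2045 to 2158 in H1-TKO, and 4 of its genes (Pdgfrb, Postn, Dcn and Mgp) were listed at 0 in every library. Of 15 primitive and parietal endoderm markers 7 were tested and 1 rose (Hnf4a). Their summed level was 149 to 161 in WT and 357 to 368 in H1-TKO, and Sox17, Foxa2 and Pth1r were listed at 0. Of 4 endothelial markers 1 was tested and none passed in limma, with a summed level of 16.3 to 66.5 in WT and 14.7 to 16.5 in H1-TKO and Pecam1 and Tek listed at 0. Of 5 epidermal and neural markers 2 were tested and Tubb3 fell, with a summed level of 943 to 1425 in WT and 619 to 669 in H1-TKO. Their part in the results on collagens and laminins was not tested. In these bulk samples fewer cells of a type and less RNA per cell cannot be told apart.

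H3K27me3 peaks lay near the starts of a larger share of members than of all genes. A peak within 2 kb of an annotated start was listed for 20 of the 55 members in WT cells, 36.4% (95% Clopper-Pearson interval 23.8 to 50.4, counting error only), against 14.3% of the 22367 protein-coding genes. In H1-TKO cells 18 members had one, 32.7% (20.7 to 46.7), against 13.0% of genes. The members share starts and chromosomal neighbourhoods, so they are not independent. Both lists held a peak for 14 members (10.7% of all genes), 6 members had one in WT alone (3.63% of all genes) and 4 in H1-TKO alone (2.34% of all genes). Of the members with a WT peak 14 of 20 (70.0%, interval 45.7 to 88.1) also had an H1-TKO peak, and of all genes with a WT peak 74.7%. With 1 list per genotype a peak found in one list alone has no replicate check.

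**Figure D3:**
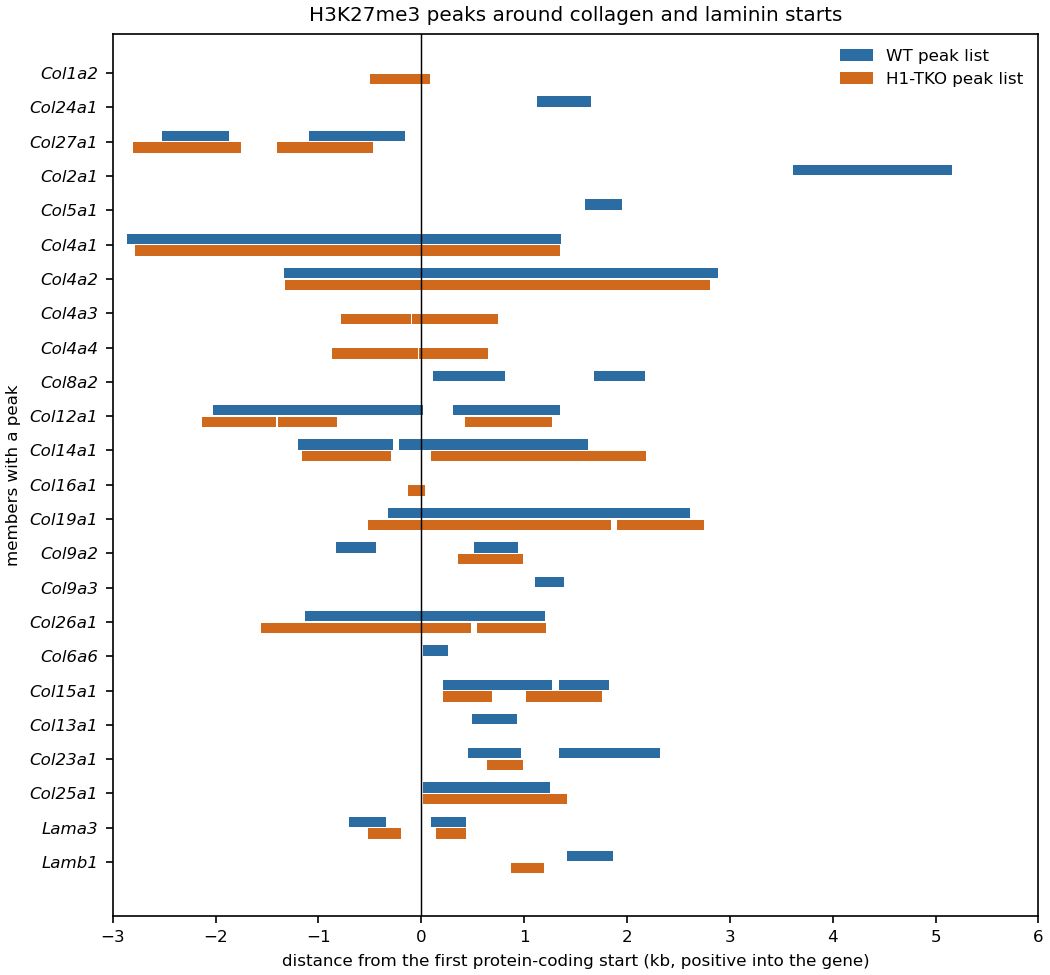
Peaks within 2 kb of a start of the 24 members that had one, drawn by distance from the first protein-coding start (kb, positive into the gene, blue for the WT list and orange for the H1-TKO list). The Col4a1 and Col4a2 rows show the same peak, as do the Col4a3 and Col4a4 rows, and the H1-TKO peak of Col8a2, 14290 bp into the gene at another start, lies outside the axis.

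The strongest peak was at Col26a1. A single WT peak, chr5:137357847-137360186, had a score of 458 and covered the start, while the H1-TKO list had 2 peaks there with scores of 252 and 57.5. The score is -10 times the log10 of the peak caller's p-value, and both lists began near 50.01. At Col4a1 and Col4a2 one peak spanned both starts, chr8:11311469-11315685 scored 223 in WT and chr8:11311480-11315612 scored 176 in H1-TKO. Its width was 4217 bp in WT and 4133 bp in H1-TKO, the widest at any member in either list. Of the 10 highest members by level per kb, Col4a1, Col4a2, Lamb1 and Col9a2 had a peak in each list. The peaks of Lamb1 scored 61.9 in WT and 58.6 in H1-TKO and lay inside the gene, over different bases in each list. Col19a1, a fibril-associated collagen, had top scores of 229 (WT) and 154 (H1-TKO), and Col25a1, a transmembrane collagen of neurons, 201 in WT and 289 in H1-TKO. Col14a1 (170 and 147), Col12a1 (169 and 106), Col15a1 (121 and 95.5), Col23a1 (137 and 62.1), Lama3 (104 and 60.9) and Col27a1 (92.8 and 63.1) had lower top scores in H1-TKO than in WT, and Col9a2 (105 and 150) a higher one. With 1 list per genotype, scores are set side by side without a test, and the read numbers that the methods state for these libraries were not used here.

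Peaks found in one list alone had scores between 51.1 and 123. In WT alone they were at Col24a1 (score 86.6), Col13a1 (78.9), Col5a1 (59.8), Col2a1 (57.9), Col9a3 (55.4) and Col6a6 (53.7). The Col2a1 peak began 3613 bp into the gene, at starts of transcripts that are not protein-coding. In H1-TKO alone, 2 peaks with scores of 102 and 123 reached from either side into the gap between Col4a4 and Col4a3 printed above, chr1:82582772-82583446 and chr1:82583459-82584293. A peak with a score of 84.2 covered the start of Col1a2 and one of 51.1 that of Col16a1. Col8a2 was listed in both, but with WT peaks at its first start (top score 59.4) and the H1-TKO peak (146.5) in an intron near another start.

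Setting RNA beside peaks, 2 of the 5 members that rose in H1-TKO cells, Col26a1 and Col23a1, had peaks in both lists with a lower top score in H1-TKO. The other 3, Col5a3, Col20a1 and Col6a4, had none in either list. A lower top score in H1-TKO was common to all members with peaks in both lists but Col25a1, Col8a2 and Col9a2. It was also found at Col4a1, Col4a2 and Lamb1, which did not pass in limma. None of the 4 members that fell had a peak. Of the 14 members with a peak in either list that were tested, 2 rose and none fell in limma, and of the 17 genes without a peak that were tested, 3 rose and 4 fell. Over all accessions 9.84% rose and 10.7% fell and these shares were not computed by peak, so nothing is read from the split. The 6 members with a peak in WT alone included 2 that were tested, Col5a1 and Col9a3, with log2 differences of 0.66 and 1.32 that did not pass. Of the 4 with a peak in H1-TKO alone, Col16a1 and Col1a2 were tested, with differences of 1.63 and -1.35 that did not pass, and Col4a3 and Col4a4 were below the filter. The median level per kb of the members with a peak was 2.07 and 1.09 in the WT libraries, and that of the members without one 2.84 and 1.86. In the H1-TKO libraries it was 3.29 and 3.81 with a peak and 3.38 and 2.44 without, so the order was not the same in all libraries. Col14a1 (0 and 2.18 normalized counts in WT, 16.5 and 5.27 in H1-TKO), Col6a6 (0 and 2.18, 12.1 and 10.5), Col24a1 (1.55 and 2.18, 7.71 and 3.16) and Col19a1 (0.776 and 0, 3.31 and 20.01) carried WT peaks and were too low to be tested. Col13a1 and Col2a1 did not exceed 7.76 normalized counts in any library. A count of 0 allows up to 2.33 normalized counts in WT replicate 1 and 3.27 in WT replicate 2.

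The promoters of members with peaks were richer in CpG. In the window from 250 bases before to 50 after the first protein-coding start, the median ratio of observed to expected CpG was 0.69 for the 14 members with a peak in both lists and 0.36 for the 31 members without a peak, against 0.54 for all 22354 genes measured. For the 24 members with a peak in either list it was 0.63, beside 0.68 for all genes with a peak in either list and 0.49 for all genes without one. A ratio of at least 0.6 was reached by 13 of these 24 members (54.2%) and by 4 of 31 without a peak (12.9%), against 59.99% of all genes with a peak, 42.9% of those without and 45.8% overall. Among the 14 with a peak in both lists 10 reached it. The members without a peak that reached 0.6 were Lamc1 (0.81), Col5a3 (0.66), Lamc3 (0.62) and Lama5 (0.61), of which Lamc1 and Lama5 were among the highest members by RNA. Col4a1 (0.90), Col4a2 (0.82) and Lamb1 (0.68) combined a CpG-rich promoter, a peak in each list and high RNA. Col4a1 and Col4a2 share the same peak, and the peaks of Lamb1 scored only 61.9 in WT and 58.6 in H1-TKO and covered no start. Col26a1 (0.50) and Col23a1 (0.70), which rose, differed in this ratio, and Col20a1, which rose without a peak, had 0.054. Col1a2 (0.16) had the lowest ratio among members with a peak, followed by Col9a3 (0.17) and Col9a2 (0.19).

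**Figure D4:**
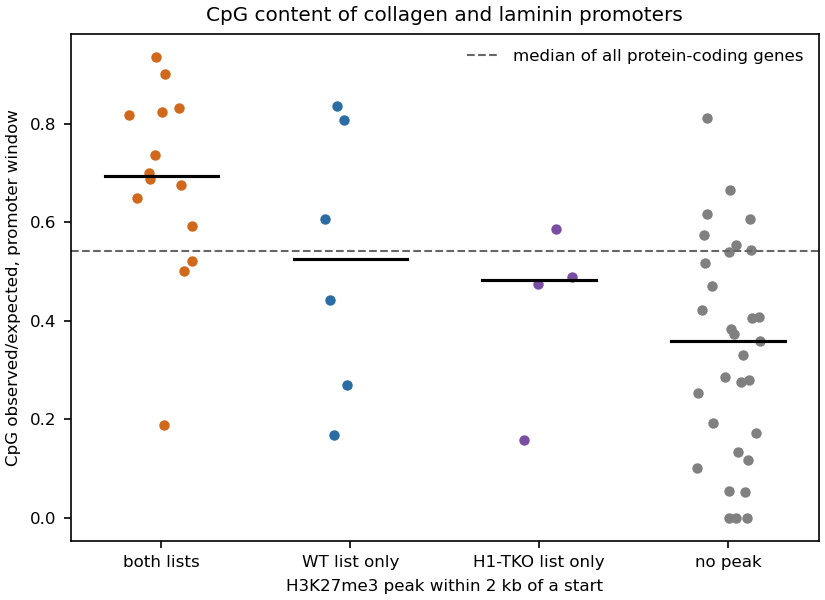
Ratio of observed to expected CpG in the promoter window of each of the 55 members, by the list in which a peak was found near a start. Points are genes, black bars medians (0.69 for both lists, 0.36 for no peak), and the dashed line is the median of all protein-coding genes, 0.54.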

How the data were processed

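Expression data (RNA-seq, 2 libraries for each genotype) and H3K27me3 peak lists (1 each, replicate 1) were analysed. ChOR-seq and the other ChIP-seq samples were not used here. The authors ran Subread on paired-end RNA-seq reads against mm9, counted unique reads with featureCounts and divided the counts by DESeq2 size factors. The deposited signal per RefSeq accession is this normalized count, and all values (100%) were within 0.1 read of a whole multiple of 1 read. No other per-sample columns were left out. For ChIP-seq, the authors used bowtie2 (mm9) and then MACS to call peaks, and the deposited score is -10 times the log10 of the peak p-value.

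Accessions with a mean of at least 10 normalized counts were tested with limma 3.58.1 (R 4.3.3) on log2(normalized count + 1), with a trend and Benjamini-Hochberg adjustment over all accessions, and the step was tested on simulated data. Log2 differences are H1-TKO minus WT. Gene symbols were looked up in RefSeq's GRCm38.p6 gene table, from which only names were taken (33650 of 34010 accessions matched). Starts, transcript lengths and sequences came from GENCODE M1 and NCBIM37, the files' build. Peaks within 2 kb of any start of a gene were counted with Python 3.11.15. Alternatives included edgeR 4.0.16 and DESeq2 1.42.0 on the recovered reads. Genes named are those called, the 10 highest per kb, the type IV chains with Lama1, Lama5, Lamb1 and Lamc1, members with a peak, and called genes of the other lists, and Lamc3, Lama4, Mgp and other genes named beyond these were chosen after their values were seen. The members and lists were chosen with earlier results of these data known. The values of 1 member are not reported here. Whether counting used strand is not given in the sources used here. Col4a1 and Col4a2 share 22 exon bases on opposite strands and Col1a1 109 bases with an antisense gene. The largest such overlaps were those of Lamc3 with Gm13441 (382 bases) and of Col9a3 with Tcfl5 (234 bases).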

Additional observations from a re-analysis of the deposited data

How the results depend on the processing

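The 9 called members kept their direction under every alternative run, and Col5a3 and Col18a1 kept their calls in each one that gave a value. The count of members higher and lower in H1-TKO was 5 and 4. It stayed within 1.5 times of that with pseudocounts of 0.5 and 5, TMM, quantile normalization, edgeR, DESeq2, summed accessions and chromosome medians removed. Without a filter 2 were higher (624 higher and 697 lower over all accessions), and with a mean of at least 100, 1 was higher and 3 lower of 13 tested (896 and 1018 of 7028 over all accessions). Same-numbered libraries did not deviate together (correlation 0.011), so the numbers pair nothing. With a replicate block 8 were higher and 7 lower of 32 (1521 and 1778 of 11113 over all accessions), and 2 accessions of the 3 other lists were higher and 12 lower. Leaving out 1 library in turn gave 1 to 11 members higher and 1 to 12 lower, 199 to 2682 and 386 to 2786 over all accessions, and 1 to 6 and 4 to 17 for the 3 lists, in fits where the lone library is assumed to vary like the other genotype. Quantile normalization gave 2 higher in the 3 lists.

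Leaving out a library changed the sign of members that had not passed. Over the 4 such fits the log2 difference ran from -0.55 to 0.19 for Col8a2, -1.05 to 0.16 for Col4a1, -0.19 to 0.0026 for Lamb2, -0.56 to 0.20 for Lamb1, -0.24 to 0.97 for Lama3 and -0.61 to 0.088 for Col9a2, where the sign turned without WT replicate 2, and without WT replicate 1 for the other 5. The cause was not tested. With a MACS score of at least 100, 11 members had a peak in WT, 11 in H1-TKO and 8 in both (1711, 1496 and 1155 of all genes), since fewer peaks remain. The windows of 1 kb and 5 kb, peak centres and protein-coding starts left the counts within 1.5 times. The 24 members that were not tested had a mean under 10 normalized counts, and their values rest on few reads.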

Other observations

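Some members that were too low to be tested or missed the threshold are given as values only, chosen after their values were seen. Col11a2, a cartilage collagen, was at 2.33 and 5.45 normalized counts in WT against 12.1 and 14.7 in H1-TKO, and Lamc3, a γ chain of retina and brain, at 1.55 and 3.27 in WT and 19.8 and 11.6 in H1-TKO. Col6a1, a type VI chain, was at 20.9 and 7.64 in WT and 3.31 and 0 in H1-TKO. Col22a1, found at tissue junctions, was at 26.4 and 30.5 in WT and 79.3 and 62.1 in H1-TKO, with a log2 difference of 1.28 ± 0.38 (limma adjusted p = 0.0531). Col5a2, the α2 chain of type V collagen on chromosome 1, was at 82.2 and 36.0 in WT and 18.7 and 18.96 in H1-TKO, with a difference of -1.48 ± 0.52 (limma adjusted p = 0.0805). The chains of type V collagen thus had differences of 2.80 for Col5a3, 0.66 for Col5a1 and -1.48 for Col5a2, of which the first passed.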
